A study of Mus musculus with 6 samples.

Results

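The T cell receptor complex and its coreceptors were followed through 10 genes: Cd3e, Cd3d, Cd3g, Cd247, Cd4, Cd8a, Cd8b1, Lck, Zap70 and Cd2. They were chosen by function and found among 55401 gene IDs by their GENCODE mouse M21 symbols, and all 10 were matched. The samples were bulk RNA of cells isolated from the lamina propria of the colon, the immune-rich connective tissue under the epithelium. All mice were male, 5 to 6 weeks old, and Apc Min/+, carrying a truncated copy of the Wnt suppressor Apc, so the controls had the mutation too. In 3 libraries the mice had been gavaged with vehicle, 2% Tween 80, and in 3 libraries with atorvastatin, an inhibitor of cholesterol synthesis, at 20 mg/kg, in both cases on every second day. How long treatment lasted and how many animals gave each library is not stated in the labels used here. The p-values therefore cover the variation among these 6 libraries alone, part or all of which could be technical.

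T cells recognise peptides on MHC molecules through a receptor whose alpha and beta (or gamma and delta) chains have almost no signalling tail of their own. The CD3 gamma, delta and epsilon chains and the zeta chain encoded by Cd247 carry that function through immunoreceptor tyrosine-based activation motifs (ITAMs). CD4 and CD8 bind MHC class II and class I and bring the kinase LCK to the receptor, LCK phosphorylates the ITAMs, and ZAP70 docks on them. CD2 is an adhesion receptor that binds CD48 in mice.

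Values were FPKM, fragment numbers divided by the length of the gene and the size of the library, so levels are per length. They were compared as log2(FPKM + 1), on which changes of low genes are understated. Sums of FPKM ranged from 355787 to 456064 per library, and immunoglobulin genes took 27.9% to 47.9% of them. The number of fragments behind a value is unknown. Vehicle library 3 stood apart, with Pearson's r across genes of 0.938 to 0.95 to the other 5 libraries, against 0.957 to 0.970 among those. In a bulk sample fewer T cells and less RNA per T cell cannot be told apart. The markers of the cells labelled lamina propria were present, with Ptprc, the pan-leukocyte gene for CD45, at 13.9 to 19.5 FPKM and the fibroblast gene Dcn at 315 to 388. The epithelial gene Epcam was at 8.27 to 13.6 FPKM, on average above 8 of the 10 T cell genes.

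The 3 CD3 genes lie together on mouse chromosome 9 (build mm10), and their start regions are shown for that reason. Over the 6 libraries Pearson's r was 0.95 for Cd3e and Cd3g. It was 0.63 for Cd3e and Cd3d and 0.69 for Cd3d and Cd3g, near the median of 0.66 over all 45 pairs of the 10 genes. Cd3g (44969572 to 44980431) and Cd3d (44981786 to 44987339) are transcribed away from each other from start sites 1355 bases apart in GENCODE M21. Cd3e (44998740 to 45009622) follows 11400 bases beyond Cd3d. Each RefSeq window (GRCm38.p6, the same build) spans 250 bases before a start site and 50 from it on, is written 5′ to 3′ on the gene's strand, and has the ETS-type letters AGGAAGT in capitals, on either strand, ETS1 being a transcription factor abundant in lymphocytes.
Cd3g, chr9:44980382-44980681, minus strand: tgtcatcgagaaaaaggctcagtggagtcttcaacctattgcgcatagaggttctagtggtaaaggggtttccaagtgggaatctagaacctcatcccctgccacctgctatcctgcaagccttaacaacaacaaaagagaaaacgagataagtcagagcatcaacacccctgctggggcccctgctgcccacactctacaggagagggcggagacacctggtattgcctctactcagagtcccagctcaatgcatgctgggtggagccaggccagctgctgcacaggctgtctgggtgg
Cd3d, chr9:44981536-44981835, plus strand: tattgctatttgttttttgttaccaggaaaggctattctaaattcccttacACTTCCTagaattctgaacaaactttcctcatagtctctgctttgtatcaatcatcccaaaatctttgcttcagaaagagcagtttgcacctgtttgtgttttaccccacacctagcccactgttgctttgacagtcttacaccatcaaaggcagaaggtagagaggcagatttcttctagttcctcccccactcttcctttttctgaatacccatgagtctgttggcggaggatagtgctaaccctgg
Cd3e, chr9:45009562-45009861, minus strand: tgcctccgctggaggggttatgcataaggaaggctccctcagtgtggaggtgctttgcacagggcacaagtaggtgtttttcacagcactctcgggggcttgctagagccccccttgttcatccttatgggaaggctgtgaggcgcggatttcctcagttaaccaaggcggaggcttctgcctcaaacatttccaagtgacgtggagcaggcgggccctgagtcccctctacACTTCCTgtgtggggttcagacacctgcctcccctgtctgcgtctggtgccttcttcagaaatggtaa
The zeta chain gene Cd247 lies on chromosome 1 (165788681 to 165871153), away from the cluster, and is shown for comparison.
Cd247, chr1:165788431-165788730, plus strand: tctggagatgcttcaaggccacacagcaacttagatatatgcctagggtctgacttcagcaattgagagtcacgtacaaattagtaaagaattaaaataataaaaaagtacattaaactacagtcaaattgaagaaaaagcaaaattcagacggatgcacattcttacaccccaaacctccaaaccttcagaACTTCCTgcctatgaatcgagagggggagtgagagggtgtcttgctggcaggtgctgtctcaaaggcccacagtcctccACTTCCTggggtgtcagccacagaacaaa
Lck, on chromosome 4, is known to have 2 start regions, and both are in RefSeq. The span deposited for Lck (129548344 to 129558391) holds the downstream start, while the GENCODE M21 gene runs on to 129573641 and takes in the upstream one.
Lck upstream start, chr4:129573592-129573891, minus strand: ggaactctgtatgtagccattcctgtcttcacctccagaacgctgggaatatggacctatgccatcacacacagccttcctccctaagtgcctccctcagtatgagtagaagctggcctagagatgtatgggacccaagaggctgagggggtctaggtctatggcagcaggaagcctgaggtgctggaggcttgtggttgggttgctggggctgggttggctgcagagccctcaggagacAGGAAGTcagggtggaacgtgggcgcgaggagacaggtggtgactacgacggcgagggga
Lck downstream start, chr4:129558323-129558622, minus strand: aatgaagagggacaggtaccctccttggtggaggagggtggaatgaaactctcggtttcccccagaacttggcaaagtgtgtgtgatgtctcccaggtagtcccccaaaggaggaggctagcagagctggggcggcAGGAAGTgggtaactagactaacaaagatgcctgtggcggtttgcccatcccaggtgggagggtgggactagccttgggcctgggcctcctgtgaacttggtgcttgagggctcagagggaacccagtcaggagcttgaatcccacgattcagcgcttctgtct

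RefSeq windows were found for 7 of the 10 genes (10 windows, 3 of them for Zap70), and Cd4, Cd8b1 and Cd2 had none. The letters AGGAAGT stood in 5 of the 10 windows, those of Cd3d, Cd3e and Cd247 and both of Lck, and in 9.35% of all 32851 windows of that length. In Cd3e they ended 12 bases before the start site, and in the upstream Lck window 4 bases before it. The E-box CACCTG, read by E proteins, was found in 8 of the 10 windows and in 20.2% of all windows. The RUNX letters TGTGGT were in 2 windows (16.8% of all), the TCF and LEF letters CTTTGA in 3 (16%) and the GATA letters AGATAA in 1 (11.2%). Both strands were searched, no matches of different motifs overlapped in these windows, and the motifs were picked with the sequences in view. A match is a description of letters, not evidence of binding.

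With atorvastatin none of the 10 genes passed the test. In limma on log2(FPKM + 1), 0 of 10 had an adjusted p under 0.05, as did 0% of the 13590 genes tested. At an unadjusted p under 0.05 there were 0 of 10, against 7.17% of all genes (549 lower, 4.04%, and 425 higher, 3.13%; with sums of FPKM made equal between libraries 146 and 300, and with sums made equal over genes other than immunoglobulins 254 and 837, by median-of-ratios scaling 432 and 627, with a trend on length removed 457 and 467, and with no filter 775 and 986). In 0 of 10 genes did the groups fail to overlap, against 14.4% of all genes (8.85% lower and 5.53% higher). The difference was below 0 in 8 of 10 genes, where 53.0% of all genes lay below 0, and above 0 in Cd4 and Zap70. With sums made equal over genes other than immunoglobulins Cd3e and Cd247 also lay just above 0, where the median of all genes tested was 0.06. The median difference of the 10 was -0.12 beside -0.02 for all genes tested, and their intervals, at 95%, ran from -0.79 for Cd8a and Cd8b1 to 0.63 for Cd4. On the FPKM + 1 scale these bounds are 0.578 of the vehicle level for Cd8a and 1.55 times it for Cd4, and changes up to that size lie inside the intervals.

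**Figure D1:**
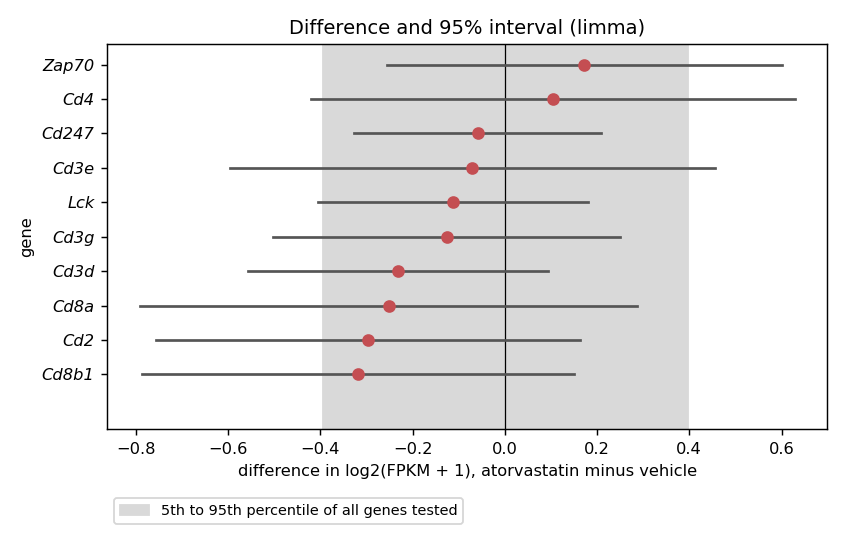
Difference in log2(FPKM + 1), atorvastatin minus vehicle, for each of the 10 genes (points) with the 95% interval from limma (lines, n = 3 libraries per group). The grey band is the 5th to 95th percentile of the 13590 genes tested, from -0.39 to 0.40, and every interval crosses 0.

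Cd3e, the epsilon chain that pairs with both gamma and delta, had 4.49, 6.58 and 3.51 FPKM with vehicle and 3.80, 5.66 and 4.07 with atorvastatin. The groups overlapped almost wholly, and library 2 was the highest of each. The log2 difference was -0.07 (SE 0.22, n = 3 per group), with a limma adjusted p of 0.945. It was 0.13 without vehicle library 2 and 0.02 without atorvastatin library 1, but -0.24 without vehicle library 3 and -0.21 without atorvastatin library 2.

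Cd3d, the delta chain, had 9.16, 9.15 and 7.24 FPKM with vehicle and 7.27, 7.83 and 6.18 with atorvastatin. Only vehicle library 3 fell among the atorvastatin values. The difference was -0.23 (SE 0.14, n = 3 per group; limma adjusted p = 0.714), and leaving out vehicle library 3 gave -0.33 (limma unadjusted p = 0.0358, adjusted p = 0.587). Cd3g, the gamma chain, had 5.99, 7.19 and 4.90 FPKM with vehicle and 4.67, 6.20 and 5.37 with atorvastatin, and its groups overlapped. Its difference was -0.13 (SE 0.16; limma adjusted p = 0.854), and with 1 library left out it ran from -0.25 (without vehicle library 3) to -0.0088 (without vehicle library 2).

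Cd247, which encodes the zeta chain with the most ITAMs of the complex, was the steadiest of the 10 genes. It had 4.96, 5.18 and 4.39 FPKM with vehicle and 4.54, 5.07 and 4.22 with atorvastatin, so that its highest library was 1.23 times its lowest. For Cd8a that factor was 2.12, the widest of the 10. The Cd247 difference was -0.06 (SE 0.11, n = 3 per group; limma adjusted p = 0.908), and from -0.12 (without atorvastatin library 2, and likewise without vehicle library 3) to -0.0086 (without atorvastatin library 3) with 1 library left out. Its span is crossed on the opposite strand by Pou2f1, at 0.45 to 2.25 FPKM, and no source used here states whether counting used strand.

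Cd4, the coreceptor for class II (chromosome 6, 124864692 to 124888221), had 6.37, 9.50 and 4.84 FPKM with vehicle and 7.12, 8.26 and 6.47 with atorvastatin. All atorvastatin values lay inside the vehicle range. The difference was 0.10 (SE 0.22, n = 3 per group; limma adjusted p = 0.918) and was -0.09 without vehicle library 3 and 0.33 without vehicle library 2. Some lymphoid tissue inducer cells and myeloid cells also carry CD4.

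The class I coreceptor genes neighbour each other on chromosome 6, 35932 bases apart. Cd8a (71373427 to 71379169) had 2.95, 4.06 and 3.54 FPKM with vehicle and 2.03, 4.31 and 2.34 with atorvastatin, and Cd8b1 (71322788 to 71337494) had 5.85, 6.01 and 4.2 with vehicle and 3.12, 5.35 and 3.92 with atorvastatin. In both genes atorvastatin libraries 1 and 3 were below every vehicle library, and atorvastatin library 2 was inside or above the vehicle range. The differences were -0.25 for Cd8a (SE 0.23; limma adjusted p = 0.797) and -0.32 for Cd8b1 (SE 0.20; limma adjusted p = 0.723). Without atorvastatin library 2 they were -0.50 (unadjusted p = 0.0187) and -0.48 (unadjusted p = 0.0409), with limma adjusted p-values of 0.656 and 0.658. Without atorvastatin library 1 they were -0.094 and -0.17. CD8 alpha also occurs without beta, as a homodimer, on intraepithelial lymphocytes and on some dendritic cells. The intraepithelial lymphocyte list had 5 of 6 tested genes below 0 (53.0% of all genes) and a median difference of -0.11. The summed levels of that list were 119 to 145 FPKM with vehicle and 119 with atorvastatin in every library. Gzmb (mean 72.3 FPKM), Fcer1g (23.1) and Gzma (21.8) dominated that sum, and the other genes of the list had means of 0.99 to 3.09. Gzma and Fcer1g also stand in lists of other cells here, so the sum is no level of intraepithelial lymphocytes alone. The part of that list in the CD8 values was not tested.

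Lck, the kinase that starts the signal, had 10.96, 13.81 and 11.80 FPKM with vehicle and 11.43, 11.80 and 10.26 with atorvastatin. Zap70, the kinase that follows it (chromosome 1, 36761798 to 36782818), had 5.41, 7.21 and 4.11 with vehicle and 6.19, 6.75 and 5.91 with atorvastatin. The groups overlapped in both genes, and Zap70 spread more widely with vehicle. The differences were -0.11 for Lck (SE 0.12; limma adjusted p = 0.827) and 0.17 for Zap70 (SE 0.18; limma adjusted p = 0.822). For Zap70 it was 0.35 without vehicle library 2 and 0.00 without vehicle library 3, and for Lck it ran from -0.18 (without vehicle library 1) to -0.03 (without vehicle library 2).

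Cd2 (chromosome 3, 101275899 to 101287939) had 29.80, 34.42 and 32.86 FPKM with vehicle and 28.94, 31.66 and 19.36 with atorvastatin. Atorvastatin library 3 was far below the other 5. The difference was -0.30 (SE 0.19, n = 3 per group; limma adjusted p = 0.735), and -0.09 without that library. In mice CD2 is found on B cells and NK cells as well as T cells. Of 8 B cell markers all had differences below 0 (53.0% of all genes), with 0 called, and 6 of them had groups that did not overlap (8.85% of all genes did so in that direction). The summed level of these markers was 348.5 to 454 FPKM with vehicle and 274 to 290 with atorvastatin. Their part in the Cd2 values was not tested.

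**Figure D2:**
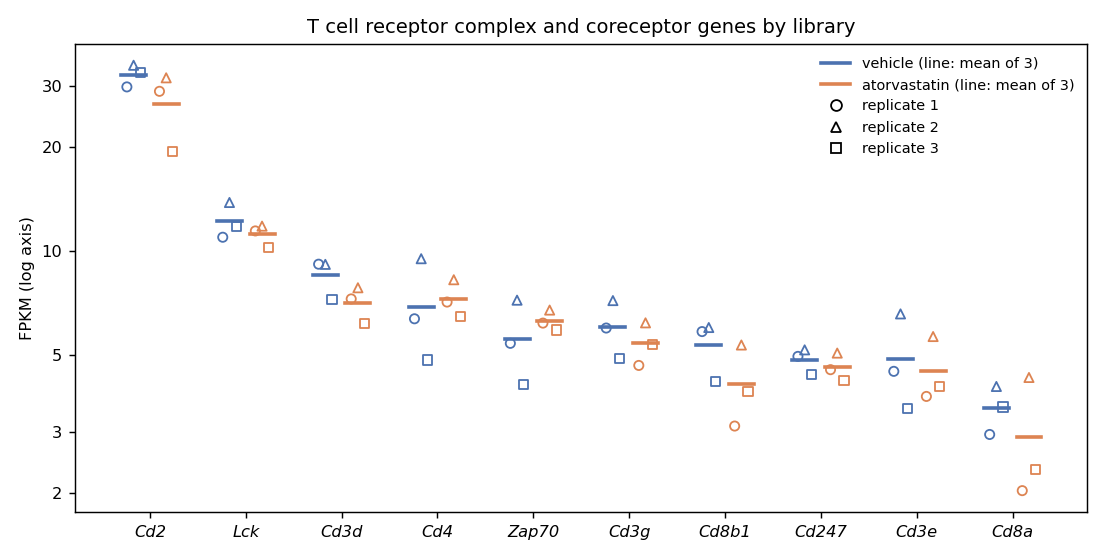
FPKM of the 10 genes in each library on a log axis, ordered by mean level, with vehicle in blue and atorvastatin in orange, symbols for the replicate number and a line at each group mean (n = 3). The groups overlap in every gene, and the triangles of replicate 2 are at or near the top of both groups.

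Over all 6 libraries the order of levels in FPKM was Cd2 (mean 29.5), Lck (11.7), Cd3d (7.80), Cd4 (7.09), Zap70 (5.93), Cd3g (5.72), Cd8b1 (4.74), Cd247 (4.73), Cd3e (4.69) and Cd8a (3.21). Cd2 exceeded Lck, Lck exceeded Cd3d, Cd4 exceeded Zap70 and Cd3g exceeded Cd8b1 in 6 of 6 libraries. Cd3e exceeded Cd8a in 5 of 6 libraries, with a mean log2 ratio of 0.56 (SD 0.33). The other 4 pairs of neighbours changed places between libraries, each with a mean log2 ratio smaller than its SD. Among the CD3 chains Cd3d was the highest of the 3 and exceeded Cd3e by a factor of 1.38 to 2.06 within a library. No source used here states the authors' gene lengths, and levels of different genes depend on them.

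The clearest pattern of the 10 genes was between libraries rather than between treatments. In vehicle library 2 and in atorvastatin library 2 all 10 genes were above their own 6-library mean. Vehicle library 2 was the highest of all 6 libraries for 8 of the 10 genes, and the exceptions were Cd3d, with 9.16 FPKM in vehicle library 1, and Cd8a, with 4.31 in atorvastatin library 2. Counted within each group, 9 of the 10 genes had their top value in library 2 of both groups, which 12.9% of all genes tested did. The mean deviation of the 10 genes on the log2 scale was 0.28 in vehicle library 2 and 0.15 in atorvastatin library 2, against 0.03 and -0.13 in the other vehicle libraries and -0.14 and -0.19 in the other atorvastatin libraries. The median of all genes tested deviated by 0.03 in vehicle library 2 and by -0.06 in atorvastatin library 2. The lowest library was vehicle 3 for 3 genes, atorvastatin 1 for 3 and atorvastatin 3 for 4. This pattern was noticed in the values. Library 2 of each group also had the highest immunoglobulin share of the FPKM sum in its group. With vehicle it was 38.4%, against 35.6% in library 1 and 30.4% in library 3. With atorvastatin it was 47.9%, against 30.2% in library 1 and 27.9% in library 3. The part of this share in the T cell values was not tested.

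**Figure D3:**
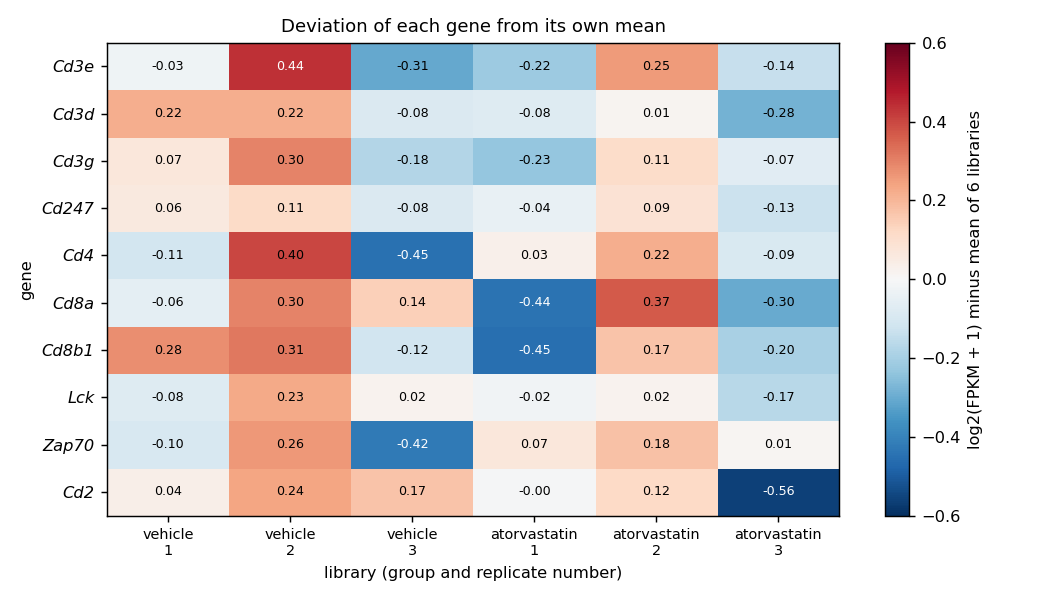
Deviation of log2(FPKM + 1) of each gene (rows) from its own mean over the 6 libraries (columns), with red above and blue below the mean and the value printed in each cell. Both columns of replicate 2 are above 0 for all 10 genes, and the lowest cell is Cd2 in atorvastatin library 3 at -0.56.

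Other lists were counted for the same pattern. Library 2 was the highest of both groups for 4 of 7 receptor constant genes, 15 of 29 tested signalling partners, 6 of 10 T lineage transcription factors and 3 of 9 NK cell and innate lymphoid cell (ILC) markers. It was so for 1 of 8 B cell markers, 1 of 6 intraepithelial lymphocyte markers, 2 of 8 ITAM genes of other immune cells, 0 of 4 CD2 partners, 2 of 6 dendritic cell markers, 1 of 9 macrophage markers and 0 of 6 stroma markers. Of the epithelium markers 4 of 8 had it, and their summed level was 51.6 FPKM in vehicle library 2 and 51.4 in atorvastatin library 2, against 22.5 to 48.5 in the other 4. Among plasma cell markers it was 3 of 6. The defining NK cell genes Ncr1 and Klrb1c were at 0.78 to 1.81 and 0.03 to 0.84 FPKM. Mean levels over the whole NK cell and ILC list ran from 0.39 FPKM for Klrb1c to 21.8 for Gzma, with Klrd1 at 7.39 and Il7r at 13.9. The part of epithelial or plasma cell content in the T cell values was not tested.

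Pearson's r over the 6 libraries was above 0 for 44 of the 45 pairs of the 10 genes, with a median of 0.66 and a range from -0.00079 to 0.97. The 6 points share library composition and scaling, so these values describe these libraries. Against the mean of Cd3e, Cd3d and Cd3g, Cd247 had an r of 0.93 and Cd8b1 of 0.88, followed by Cd4 (0.78), Lck (0.69), Cd8a (0.69), Zap70 (0.64) and Cd2 (0.51). Cd247 stood at rank 123 of 13325 genes in that order, Cd8b1 at 323, Cd4 at 876, Lck at 1471, Cd8a at 1475, Zap70 at 1803 and Cd2 at 2814. The 10 genes most like the CD3 mean by r over 6 libraries were Dnajc18 (1.00), Cptp (1.00), Prepl, Ddx28, Galnt12, Il18rap (0.99), Tcta, Slc52a3, C920009B18Rik and Gtpbp1 (0.98). Of these Il18rap, a chain of the IL-18 receptor, had 7.71, 9.15 and 6.37 FPKM with vehicle and 6.24, 8.09 and 6.80 with atorvastatin. In all, 61 genes had an r above 0.95, and with 6 libraries and that many genes such values are no finding about any of them.

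Ratios within a library do not depend on its scaling, and 8 were compared by a two-sided exact permutation test, whose smallest p for 3 against 3 libraries is 0.1. ZAP70 relative to LCK was the ratio whose groups did not overlap. Zap70/Lck was 0.494, 0.522 and 0.348 with vehicle and 0.542, 0.572 and 0.576 with atorvastatin, a log2 difference of 0.33 (SE 0.18, n = 3 per group; exact permutation p = 0.1, 0.8 adjusted over the 8 ratios). The vehicle value of 0.348 came from library 3, and without it the difference was 0.15. Cd8a/Cd4 was 0.463, 0.427 and 0.731 with vehicle and 0.285, 0.522 and 0.362 with atorvastatin, a log2 difference of -0.48 (SE 0.35; exact permutation p = 0.3, adjusted 0.96). Here 2 of 3 atorvastatin libraries lay under every vehicle library. The difference was -0.24 without vehicle library 3, -0.27 without atorvastatin library 1 and -0.71 without atorvastatin library 2.

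The coreceptor chains kept an order of their own, with Cd8b1 above Cd8a in 6 of 6 libraries, by 1.19 to 1.98 times. The treatment difference of that log2 ratio was -0.04 (SE 0.25; exact permutation p = 1). Cd3e relative to the leukocyte gene Ptprc was 0.248, 0.354 and 0.199 with vehicle and 0.274, 0.291 and 0.25 with atorvastatin, a log2 difference of 0.06 (SE 0.25; exact permutation p = 0.8). The atorvastatin values lay inside the vehicle range. Differences of the other 4 log2 ratios ran from -0.23 for Cd2/Cd3e through -0.18 for Cd3d/Cd3e and -0.07 for Cd3g/Cd3e to 0.01 for Cd247/Cd3e, with exact permutation p-values of 0.5 to 1. Without vehicle library 3 they were -0.0046 for Cd2/Cd3e and -0.083 for Cd3d/Cd3e.

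**Figure D4:**
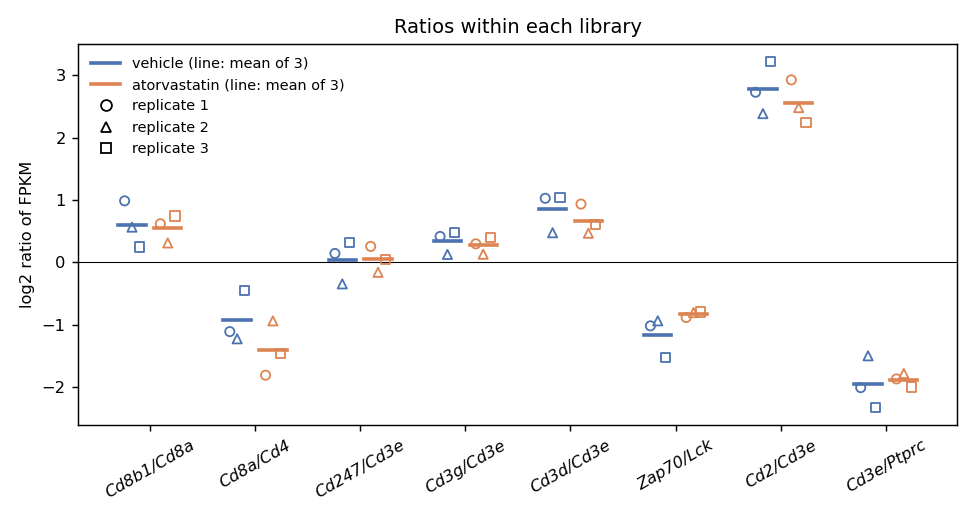
Log2 ratio of FPKM of 2 genes within each library (points, symbols for the replicate number) with the mean of each group (line, n = 3), vehicle in blue and atorvastatin in orange. Zap70/Lck is the ratio in which the 3 atorvastatin libraries lie above all vehicle libraries.

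The chains that bind antigen were measured through their constant genes. All 7 had differences below 0 (53.0% of all genes), with a median of -0.28 and 0 called. At an unadjusted p under 0.05 in limma and lower were 2 of 7 (4.04% of all genes), and 1 of 7 was lower without overlap (8.85%). The alpha chain gene Trac had 27.25, 28.74 and 25.34 FPKM with vehicle and 22.44, 24.29 and 28.42 with atorvastatin (difference -0.11, SE 0.13; limma adjusted p = 0.831). Its level was above that of every CD3 gene in all 6 libraries. The beta chain genes Trbc1 and Trbc2, near-identical copies between which reads may be split uncertainly, had differences of -0.23 (SE 0.22) and -0.35 (SE 0.18).

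The constant genes of the delta and gamma chains had lower levels than Trac, Trbc1 and Trbc2 in every library. The mean level of each gamma gene was still above that of Cd8a. Trdc, the delta chain, had 2.11, 1.72 and 2.42 FPKM with vehicle and 1.24, 1.44 and 1.96 with atorvastatin (difference -0.28, SE 0.15; limma adjusted p = 0.699). Tcrg-C1 had 3.61, 4.92 and 3.72 FPKM with vehicle and 1.92, 3.11 and 3.19 with atorvastatin, and was the constant gene whose groups did not overlap. Its difference was -0.45 (SE 0.18; limma unadjusted p = 0.0428, adjusted p = 0.692). Tcrg-C4 had a difference of -0.41 (SE 0.17; limma unadjusted p = 0.0488, adjusted p = 0.692) and Tcrg-C2 of -0.15 (SE 0.12). The gamma genes resemble each other and can also share reads.

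Downstream of the receptor, 35 signalling partners were listed and 29 passed the filter of at least 1 FPKM in at least 3 libraries. Of the 29, 20 had differences below 0 (53.0% of all genes) and 9 above, and the median was -0.04. In limma 0 were at an unadjusted p under 0.05 (7.17% of all genes) and 0 were called (0%), and 0 were without overlap (14.4%). The most abundant were the kinase Fyn (difference 0.00, SE 0.14) and the diacylglycerol kinase Dgka (-0.20, SE 0.19), which dampens the signal. The smallest p-values were those of Rasgrp1, an activator of RAS (-0.14, SE 0.11), and the adaptor Fyb (-0.16, SE 0.14), with limma adjusted p-values of 0.766 and 0.792. The scaffold Lat, phosphorylated by ZAP70, had 2.36 to 3.56 FPKM and a difference of -0.05 (SE 0.17).

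T lineage transcription factors lay on both sides, 4 below and 6 above 0 of 10 (53.0% of all genes were below 0). Their median was 0.05, and 0 were at an unadjusted p under 0.05 in limma (7.17% of all genes). Ets1 had 23.8, 27.5 and 12.2 FPKM with vehicle and 24.0, 24.4 and 24.7 with atorvastatin (0.27, SE 0.28), where vehicle library 3 alone was low. Tcf7, encoding TCF1, had a difference of -0.11 (SE 0.24). Runx1 had the smallest p of the list (0.36, SE 0.19; limma adjusted p = 0.696), and Zbtb7b, the factor of the CD4 lineage, a difference of 0.16 (SE 0.16).

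Of 4 partners of CD2, 3 had differences below 0 (53.0% of all genes), 2 at an unadjusted p under 0.05 and lower (4.04%) and 1 lower without overlap (8.85%), and 0 were called. Its ligand Cd48 had 27.57, 25.85 and 24.55 FPKM with vehicle and 15.93, 24.83 and 17.91 with atorvastatin (difference -0.41, SE 0.17; limma unadjusted p = 0.0488, adjusted p = 0.692). Atorvastatin library 2 alone reached the vehicle values. Cd2ap, an adaptor at the CD2 tail that many other cells use, had 4.24, 3.76 and 4.13 FPKM with vehicle and 3.25, 3.10 and 3.33 with atorvastatin, and was the partner whose groups did not overlap. Its difference was -0.25 (SE 0.10; limma unadjusted p = 0.0383, adjusted p = 0.692). Cd2bp2 had a difference of 0.07 (SE 0.28).

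The ITAM adaptors and kinases that do the same work in B, NK and myeloid cells lay below 0 in 8 of 8 cases, with a median of -0.36, 2 at an unadjusted p under 0.05 and 5 without overlap, 0 of them called. Of all genes 53.0% were below 0, 4.04% at such a p and lower, and 8.85% lower without overlap. Cd79a and Cd79b, the ITAM chains of the B cell receptor, had differences of -0.49 (SE 0.16) and -0.40 (SE 0.18), and Lyn, a kinase related to LCK, of -0.36 (SE 0.13). Syk, the relative of ZAP70, had one of -0.14 (SE 0.18) and Fcer1g, an ITAM chain of Fc receptors, of -0.06 (SE 0.17). That these genes differ from the T cell genes in their response was not tested.

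Lists of other cells gave these medians with 0 genes called in any. Of all genes tested 53.0% lay below 0. NK cell and ILC markers had a median of -0.18 (9 tested, 8 below 0), dendritic cell markers -0.13 (6 tested, 5 below 0), plasma cell markers 0.09 (6 tested, 2 below 0), B cell markers -0.49 and macrophage markers 0.26 (9 of 9 above 0). Epithelium markers had -0.45 (8 of 8 tested below 0) and stroma markers 0.12 (1 of 6 below 0). Genes induced by tissue dissociation had 0.40 (8 of 8 above 0). Their summed level was 5564 to 5688 FPKM with vehicle and 6241 to 8671 with atorvastatin, and these sums did not overlap. By gene 3 of 8 were higher without overlap (5.53% of all genes), namely Jun, Hspa1a and Hspa1b. Hspa1a and Hspa1b had the highest mean levels of that list, 1791 and 1984 FPKM, and so weighed most in the sum. Housekeeping genes had -0.24 (5 of 7 below 0, 4 of them without overlap, where 8.85% of all genes were lower without overlap). The part of any of these in the T cell values was not tested.

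**Figure D5:**
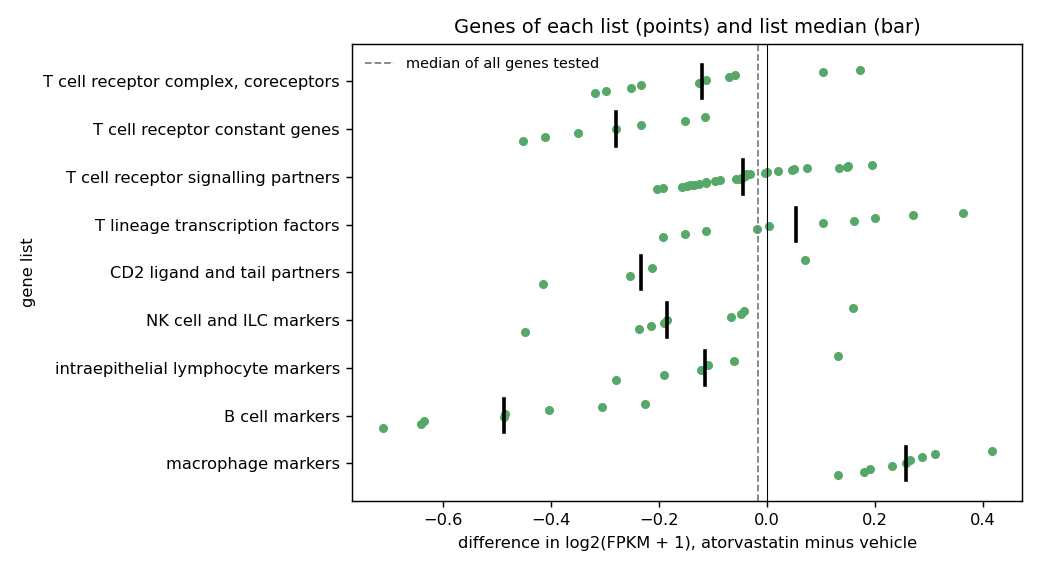
Difference in log2(FPKM + 1), atorvastatin minus vehicle, of each tested gene (points) by list, with the list median (black bar) and the median of all 13590 genes tested (dashed line, -0.02). The 10 genes of the T cell receptor complex and coreceptors lie between -0.32 and 0.17.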

How the data were processed

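RNA of colonic lamina propria cells was measured in 3 vehicle and 3 atorvastatin libraries. The authors deposited FPKM, 1 column per library with 2 decimals, scaled by gene length and library before deposit, per the file headers. The submitters' processing notes name FastQC 0.11.2, Bowtie and build mm10. No source used here states the quantifier, annotation, gene lengths or use of strand, and the depth is unknown. Of 55401 gene IDs 55141 had a GENCODE M21 symbol.

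The 13590 genes that reached 1 FPKM in 3 or more libraries were tested with limma 3.58.1 (trend, R 4.3.3) on log2(FPKM + 1), pseudocount 1, with Benjamini-Hochberg adjustment over all of them at 0.05. The limma procedure was run on simulated data with independent noise for each gene and planted changes larger than the differences of the 10 genes. That run did not cover variation shared by genes within a library, nor changes as small as those of the 10 genes. Ratios used exact permutation tests. Levels, counts and medians of lists are descriptions. Genes were named by rule: the 10 genes, the receptor constant genes, the most abundant and smallest-p members of lists, defining markers of other cells, and the 10 most like the CD3 mean. Lat, Lcp2, Ptprc, Syk, Grap2 and Klrd1 fall outside that rule and were named after their values were seen. The genes and lists were chosen with earlier results of these data known. Trgc genes were matched as Tcrg-C by RefSeq synonyms. Other pseudocounts, filters and scalings, protein-coding genes alone, a length correction, the replicate block and leaving out each library were tried as alternatives. Promoter sequences are RefSeq's (GRCm38.p6).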

Additional observations from a re-analysis of the deposited data

How the results depend on the processing

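Across 16 alternatives none of the 10 genes reached an adjusted p under 0.05 in limma (160 fits, smallest 0.575), and the median difference of the 10 stayed below 0, from -0.24 to -0.02 with single libraries left out and -0.04 with sums made equal over genes other than immunoglobulins. That scaling turned Cd247 to 0.018 and Cd3e to 0.0047, and it moved the median of all genes tested from -0.02 to 0.06. Leaving out single libraries, Cd3e ran from -0.24 to 0.13 and Cd4 from -0.092 to 0.33. The log2 ratio differences ran likewise from -0.18 to 0.15 for Cd247/Cd3e, from -0.13 to 0.29 for Cd3e/Ptprc, from -0.17 to 0.0070 for Cd3g/Cd3e and from -0.22 to 0.15 for Cd8b1/Cd8a, and the other results kept their sign. Genes at an unadjusted p under 0.05, 974 in limma, were 446 with equal sums, 1761 with no filter, where more genes were tested, and 459 to 1138 with a library left out. Genes called went from 0 to at most 2 (Gm8210 without atorvastatin library 1, an immunoglobulin variable gene and Gm26712 without atorvastatin library 3). The cause was not tested. With the replicate number as a block 852 genes had an unadjusted p under 0.05 and 0 were called. Same-numbered libraries deviated with r of -0.11, 0.14 and -0.02, so the numbers were not taken to pair the libraries. Depth is unknown, and 3 libraries per group limit the precision.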

Other observations

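Grap2, which encodes the adaptor GADS between LAT and SLP-76 and was noticed after its values were seen, had the widest error of the 29 signalling partners tested. It had 7.19, 10 and 2.17 FPKM with vehicle and 2.36, 8.72 and 6.78 with atorvastatin. Vehicle library 3 and atorvastatin library 1 were thus low, and the other 4 lay between 6.78 and 10. The difference of log2(FPKM + 1) was -0.06 (SE 0.56, n = 3 per group; limma adjusted p = 0.985). Its binding partner Lcp2, which encodes SLP-76, had 7.52 to 9.86 FPKM over the same 6 libraries, and Lat 2.36 to 3.56. Klrd1, also picked after its values were seen, is a receptor chain of NK cells and cytotoxic T cells and had 7.5, 12.5 and 6.13 FPKM with vehicle and 3.76, 7.11 and 7.35 with atorvastatin (difference -0.45, SE 0.31; limma adjusted p = 0.741).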
